A study of Mus musculus with 12 samples.

Results

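The aorta and its smaller branches were compared in RNA from 4 vessels of untreated wild-type C57BL/6 mice at 8 weeks of age. The aortic side held 3 arrays of ascending aorta and 3 of descending aorta, and the branch side held 3 arrays of coronary artery and 3 of superior mesenteric artery, which are all 12 arrays of the series. Each array was hybridised with labelled cRNA made from 6 ug of total RNA, and the labels call the 3 samples of a vessel biological replicates without saying whether an array holds 1 animal or a pool. The p-values measure the spread between the arrays of a vessel, not the spread between the vessels of a side. If a pool was used, that is the spread between pools. The study's stated aim was to find expression profiles tied to the embryonic origin of vessels, while the contrast here groups the vessels as aorta and branches.

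For each of 19938 genes with a named probe set, the difference was the mean of the ascending and descending aorta minus the mean of the coronary and superior mesenteric artery, on the deposited log2 scale. A gene was called at an adjusted p under 0.05. It was called shared when, in addition, both aortic vessel means lay on the same side of both branch vessel means. The smallest of those 4 differences between vessel means is named the gap. Shared genes were 334 higher in aorta, 1.68% of genes tested, and 175 lower, 0.878% of genes tested, together 2.55%. Since the rule selected these genes with this contrast, the counts describe the selection. The smallest gap among the shared higher genes was 0.00224 and the largest adjusted p 0.0479, so the edges of the set are not sharp. The number of arrays limits the precision.

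Conduit arteries such as the aorta are elastic vessels, while the mesenteric artery is a muscular artery and the coronary artery lies in heart muscle. Fat surrounds vessels, and around the mouse thoracic aorta it resembles brown fat, which burns lipid for heat through the uncoupling protein Ucp1, whereas mesenteric fat is of the white type. Brown fat cells carry dense mitochondria rich in fatty acid oxidation and respiratory chain enzymes. Heart muscle cells also hold many mitochondria, and the heart forms of contractile proteins mark them. A dissected vessel can carry RNA from the tissue next to it. In such bulk samples fewer cells of a type and less RNA per cell cannot be told apart.

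Some arrays stood apart before any comparison was made. Ascending aorta replicate 1 had a mean of 7.95 for the B cell list and 7.20 for the T cell list, while the other 5 aortic arrays lay between 3.71 and 4.81 for B cells. That array was also lowest for fibroblast genes at 5.40 against 7.88 or more, and for general fat cell genes at 6.87 against 8.53 or more. Descending aorta replicate 1 was highest on its side for heart muscle genes at 5.24, and superior mesenteric artery replicate 3 had a pancreatic acinar mean of 9.32. The smooth muscle list mean was 5.98 to 7.69 over the aortic arrays and 6.20 to 8.87 over the branch arrays, so each array held smooth muscle transcripts. These 3 arrays are called the doubted arrays, and for the lists reported below, counts that they move are given with and without them. Ascending aorta replicate 1 was also the lowest aortic array for the collagen, elastic fibre, matricellular, respiratory chain and Wnt lists. For lists where it was lowest, larger counts without it partly follow from leaving it out. Superior mesenteric artery replicate 1, the branch array at 8.87 for smooth muscle genes, was kept.

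Over all genes, limma called 639 of 19938, or 3.20%, at an adjusted p under 0.05. Of these, 369 were higher in aorta (1.85%) and 270 were lower (1.35%). The vessels of a side agreed for 90.5% of the higher genes and 64.8% of the lower genes. All 6 aortic arrays exceeded all 6 branch arrays for 91 of the shared higher genes, against 0.587% of all genes, and all 6 lay below for 57 of the shared lower genes, against 0.406% of all genes. The genes were selected on these same arrays, so these numbers describe the selection. Without ascending aorta replicate 1 the shared counts were 766 higher and 327 lower, and without descending aorta replicate 2 they were 199 and 108. With the 3 doubted arrays left out, an alternative added after the data were seen, 597 genes were shared higher and 212 shared lower. Of the original shared genes, 302 of 334 higher and 123 of 175 lower were shared again.

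The genes with the widest gap on the higher side were led by brown fat and lipid genes. Ucp1, the uncoupling protein of brown fat mitochondria, stood at 10.60, 11.21 and 10.97 in the ascending aorta and at 11.29, 11.59 and 11.59 in the descending aorta. In the coronary artery it was 5.87, 5.38 and 3.05, and in the superior mesenteric artery 3.47, 6.82 and 3.43. All aortic arrays lay above all branch arrays, and the difference was 6.54 ± 0.59 (SE), or 92.9-fold, with an adjusted p of 6.0e-05. Ucp1 was 1 of 5 among the 20 genes with the widest gap for which each of the 4 pairs of aortic and branch vessels also passed on its own. Cidea, a lipid droplet protein of brown fat, ranged from 6.57 to 8.72 in aorta with a median of 8.20, and from 2.60 to 4.45 in branch arteries with a median of 4.0. Its difference was 4.31 ± 0.27 (adjusted p = 7.0e-06, limma).

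**Figure D1:**
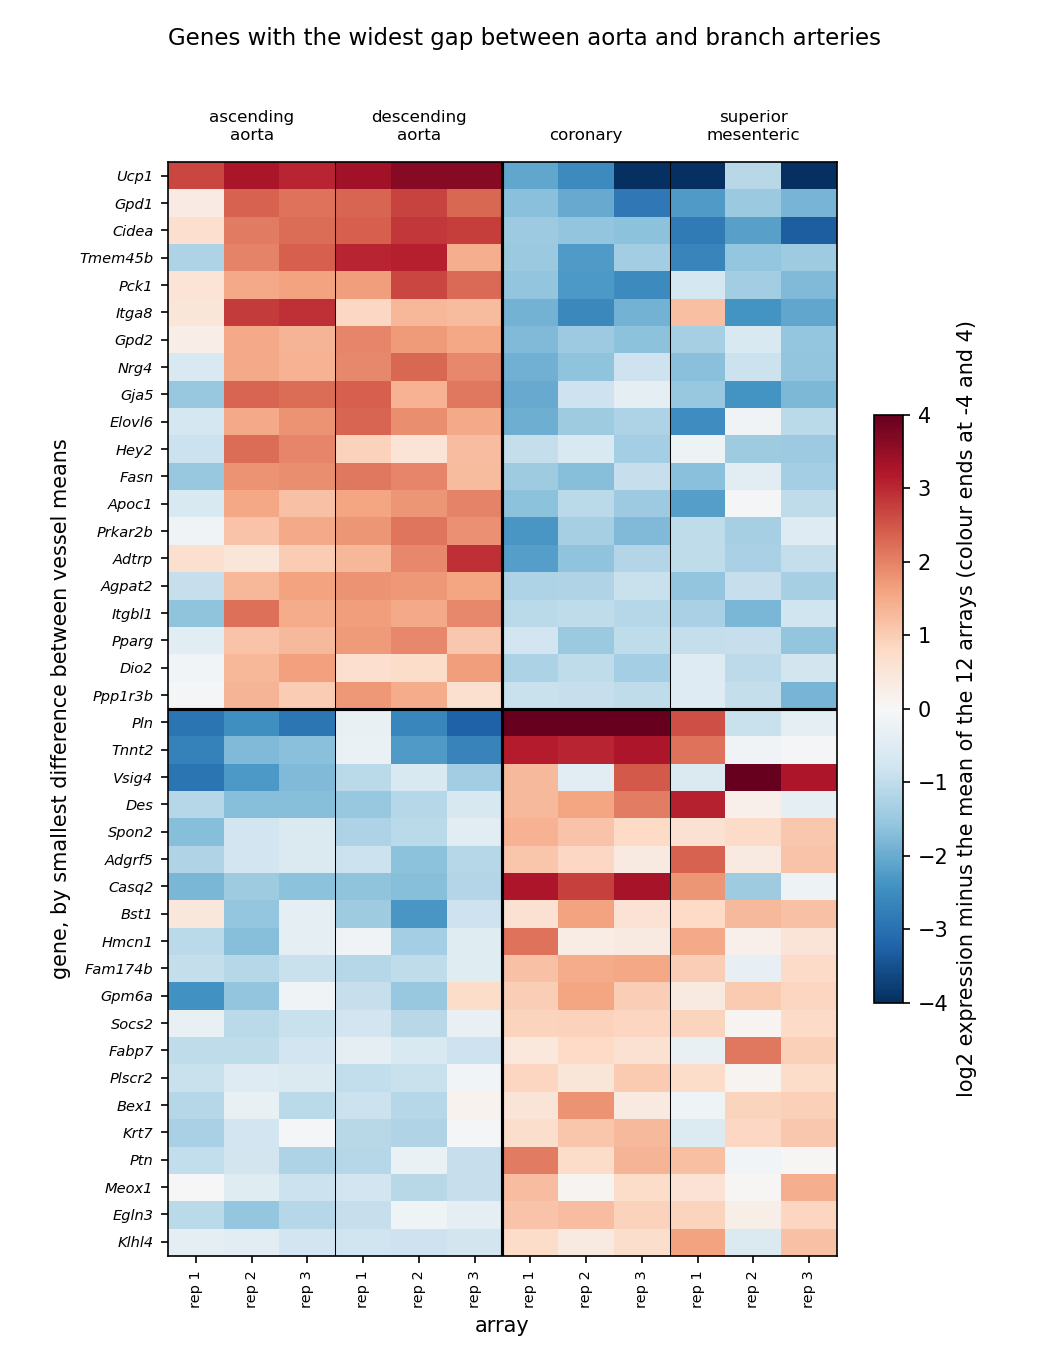
Log2 expression of the 20 shared genes with the widest gap in each direction, each row centred on its mean over the 12 arrays, by vessel and replicate. The upper 20 genes are higher in aorta, the lower 20 are lower, and ascending aorta replicate 1 is lower than the other aortic arrays for Gja5, Hey2, Fasn and Itgbl1.

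Of the 20 genes, 8 are on a fat cell list. Gpd1, which supplies glycerol phosphate for triglycerides, ranged from 7.56 to 9.94 in aorta (median 9.56) and from 4.41 to 5.77 in branch arteries (median 5.31). Its difference was 4.05 ± 0.33 and the sides did not overlap. Pck1, the glyceroneogenic enzyme, was 3.43 ± 0.27 higher, with aortic arrays at 7.39 to 9.49 against 4.28 to 6.13. Gpd2, the mitochondrial partner of Gpd1 in the glycerol phosphate shuttle, was 2.78 ± 0.22 higher. Pparg, the nuclear receptor that drives fat cell formation, was at 6.46, 8.08 and 8.21 in the ascending aorta and at 8.61, 8.83 and 8.01 in the descending aorta, against 5.36 to 6.17 in the branch arrays. Its difference was 2.22 ± 0.29, and ascending aorta replicate 1 was the lowest aortic array. Dio2, which activates thyroid hormone in brown fat, was 1.98 ± 0.28 higher. Fasn, the fatty acid synthase, was 2.49 ± 0.50 higher, but its adjusted p rose to between 0.051 and 0.054 when descending aorta replicate 1, descending aorta replicate 2 or coronary replicate 2 was left out. Of the 20 genes, 17 stayed past the threshold whichever array was left out, and all 20 did without the 3 doubted arrays.

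**Figure D2:**
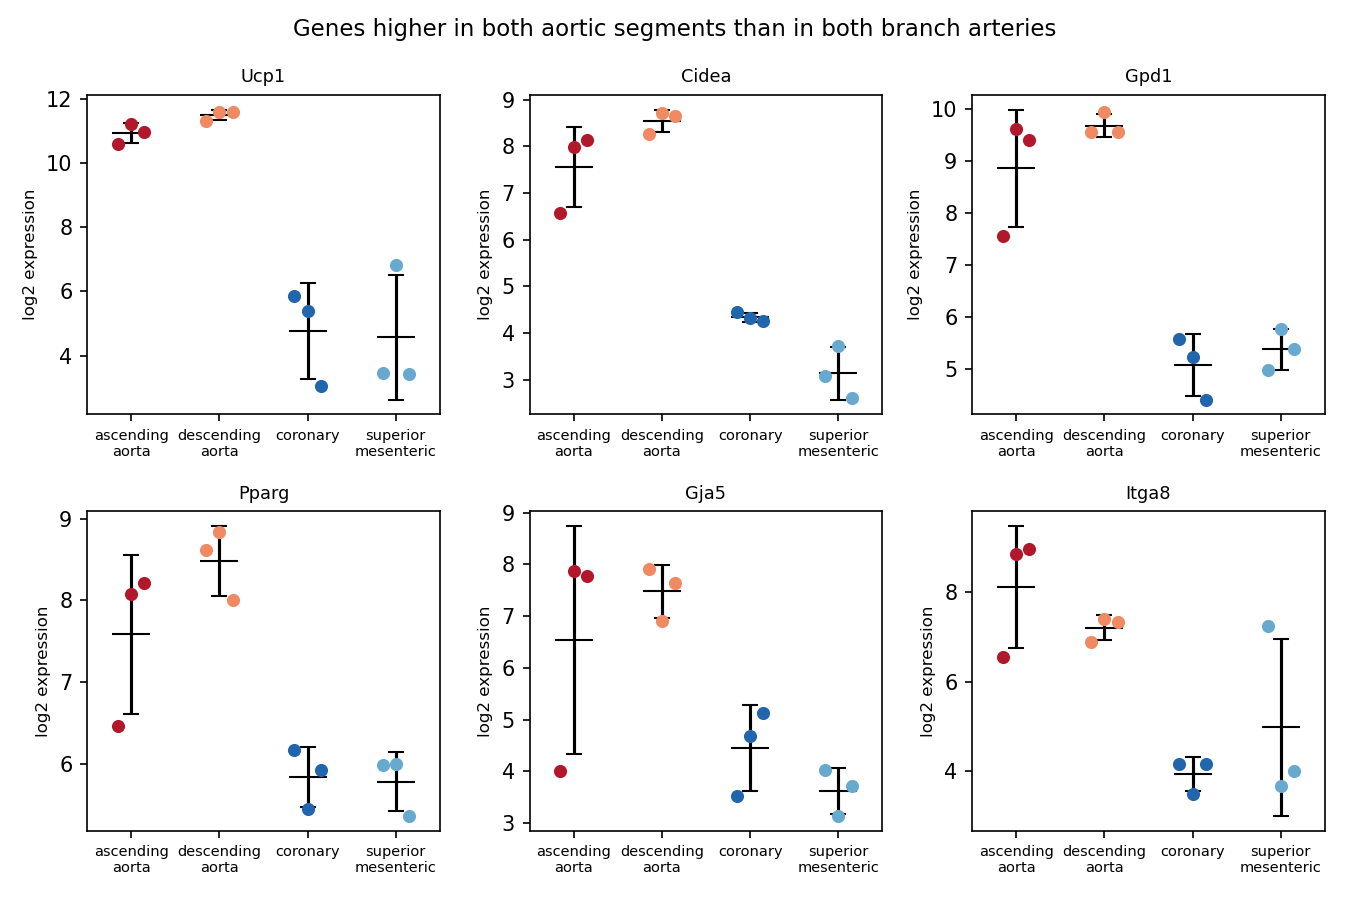
Log2 expression of 6 shared genes in each array by vessel, with black marks for the mean and bars for the SD of 3 arrays. Ucp1, Cidea, Gpd1 and Pparg separate the sides in every array, while Gja5 and Itga8 have 1 array that reaches the other side.

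The fixed lists describe the same pattern by group. These lists were chosen with earlier results of these data known. Of 26 general fat cell genes measured, 20 were higher and 0 lower, all 20 shared, with a median difference of 1.68 against a median of -0.0036 over all genes. Of 16 brown fat genes, 10 were higher, 8 of them shared, with a median of 1.34. Slc36a2, an amino acid transporter used as a brown fat marker, was 1.93 ± 0.26 higher. Plin1, a coat protein of lipid droplets, was 2.56 ± 0.29 higher, and Acaca, the first enzyme of fatty acid synthesis, was 2.37 ± 0.44 higher. The list of white fat genes gave 1 of 13 higher and 1 of 13 lower, and 3 higher and 2 lower without the 3 doubted arrays. The mean of the fat cell list was 8.53 to 9.10 in 5 aortic arrays and 6.87 in ascending aorta replicate 1, against 6.31 to 6.89 in the branch arrays. Without that array 25 fat cell genes and 11 brown fat genes were higher, and without the 3 doubted arrays 24 and 11. Ascending aorta replicate 1 was the lowest aortic array for both lists. The larger counts without it therefore partly follow from leaving it out and are a description. Whether the amount of fat left on each vessel plays a part in the differences of the fat lists was not tested.

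Because fat genes lead the list, the 250 bases before the start site were taken from RefSeq (GRCm38.p6) for the genes at the top of the higher side. Genes without a match or on a skipped chromosome were left out at this step, though the skip does not apply to the percentages below. Windows were kept for 15 of the 20 genes. They were searched on both strands for 3 short motifs: AGGTCA, the half-site bound by nuclear receptors such as Pparg; TTGCNNAA, a motif of C/EBP factors, which act in fat cells; and TCACNCCAC, a sterol regulatory element. Windows are shown for 4 of the genes that hold one, picked as examples. Nrg4, Elovl6 and Adtrp also held AGGTCA and are not shown. Capitals mark the motif: AGGTCA in Ucp1 (chr8:83290098-83290347, plus strand) and Pparg (chr6:115360894-115361143, plus strand), and the C/EBP motif in Gpd2 (chr2:57237428-57237677, plus strand) and Dio2 (chr12:90739039-90739288, minus strand), where it lies on the opposite strand of the gene.
Ucp1: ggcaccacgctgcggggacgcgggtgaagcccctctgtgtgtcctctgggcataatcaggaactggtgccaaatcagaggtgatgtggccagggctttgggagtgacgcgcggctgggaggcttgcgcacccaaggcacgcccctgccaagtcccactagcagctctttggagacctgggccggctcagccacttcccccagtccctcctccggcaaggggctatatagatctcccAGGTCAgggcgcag
Pparg: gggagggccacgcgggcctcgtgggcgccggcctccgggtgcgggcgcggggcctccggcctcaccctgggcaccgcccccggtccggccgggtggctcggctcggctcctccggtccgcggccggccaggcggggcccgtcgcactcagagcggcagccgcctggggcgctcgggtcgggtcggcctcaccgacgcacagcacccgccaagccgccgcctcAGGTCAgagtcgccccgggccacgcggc
Gpd2: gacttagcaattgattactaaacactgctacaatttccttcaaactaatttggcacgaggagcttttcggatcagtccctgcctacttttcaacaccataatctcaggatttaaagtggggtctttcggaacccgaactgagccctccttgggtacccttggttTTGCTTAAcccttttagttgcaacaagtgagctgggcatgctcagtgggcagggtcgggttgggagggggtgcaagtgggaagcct
Dio2: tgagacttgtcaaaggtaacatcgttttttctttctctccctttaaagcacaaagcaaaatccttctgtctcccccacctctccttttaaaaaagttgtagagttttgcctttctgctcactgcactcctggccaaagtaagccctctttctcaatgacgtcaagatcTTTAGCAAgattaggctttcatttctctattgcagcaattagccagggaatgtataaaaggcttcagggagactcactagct

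In all, 7 of the 15 windows held a motif. The share of all tested promoters holding any of the motifs was not counted, so this number has no background and is a description. The percentages that follow are for each motif alone. AGGTCA was found in 24.3% of 37 promoters of shared higher genes on the fat or fatty acid oxidation lists, in 13.6% of the 272 shared higher promoters, in 14.1% of the 142 shared lower promoters and in 12.2% of 15614 promoters of all tested genes. TTGCNNAA was found in 13.5%, 10.3%, 7.75% and 8.65% of the same sets, and TCACNCCAC in 0%, 1.47%, 0% and 0.993%. These matches describe letters in a window and say nothing of binding.

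Fatty acid oxidation breaks lipid down to feed the TCA cycle. Of 32 genes of fatty acid oxidation and the TCA cycle, 27 were higher in aorta and 0 lower, 21 of them shared, with a median difference of 1.14. The median was 0.54 against the coronary artery and 1.85 against the superior mesenteric artery, and the 2 medians share the aortic arrays. Sucla2, a succinyl-CoA synthetase subunit, was 1.61 ± 0.20 higher, Suclg1, the other subunit, 1.52 ± 0.20, and Acadl, a long-chain acyl-CoA dehydrogenase, 1.51 ± 0.22. Gaps of the shared genes ran from 0.00224 for Acads to 0.69 for Pdk4, and 23 of the 32 genes differed between the branch arteries. Pdk4 lost its call when any of 10 arrays was left out (adjusted p of up to 0.11, limma). It passed without the 3 doubted arrays (0.045). The list mean was 8.04 in the ascending aorta (arrays at 7.32, 8.44 and 8.36), 8.84 in the descending aorta and 8.04 in the coronary artery. Per array it was 7.32 to 9.05 in aorta, 7.85 to 8.24 in the coronary artery and 6.42 to 6.79 in the superior mesenteric artery. The coronary arrays therefore overlapped the aortic range, and 0 of the 32 genes separated all arrays of both sides. The call count was 18 to 30 over the fits that left out 1 array, lowest without descending aorta replicate 2, 29 without the 3 doubted arrays, and 0 when the model had 1 mean per side.

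The respiratory chain makes ATP from the electrons this releases. Of 51 of its genes, 9 were higher and 3 lower, and only 1 of each was shared. Sdha, the catalytic subunit of succinate dehydrogenase, was 0.90 ± 0.15 higher. Atp5g1, an ATP synthase subunit, was lower, with a difference of -2.0 ± 0.16, at 7.64 to 8.39 in aorta, 11.46 to 11.78 in the coronary artery and 7.97 to 8.54 in the superior mesenteric artery. The median of the list was -0.32 against the coronary and 1.22 against the mesenteric artery. Without ascending aorta replicate 1 the counts were 37 higher and 3 lower, and without coronary replicate 2 the total was 2. The hypoxia and glycolysis list, which holds oxygen-regulated genes beside glycolytic enzymes, gave 6 higher and 1 lower of 23, and 8 and 1 both without ascending aorta replicate 1 and without the doubted arrays. Pfkfb3, which raises glycolytic flux, was 1.88 ± 0.12 higher with no overlap of arrays, and Egln3, an oxygen-sensing prolyl hydroxylase and the 1 lower gene, was -1.75 ± 0.17, with aorta at 3.54 to 4.93 and branch arteries at 5.32 to 6.34.

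**Figure D3:**
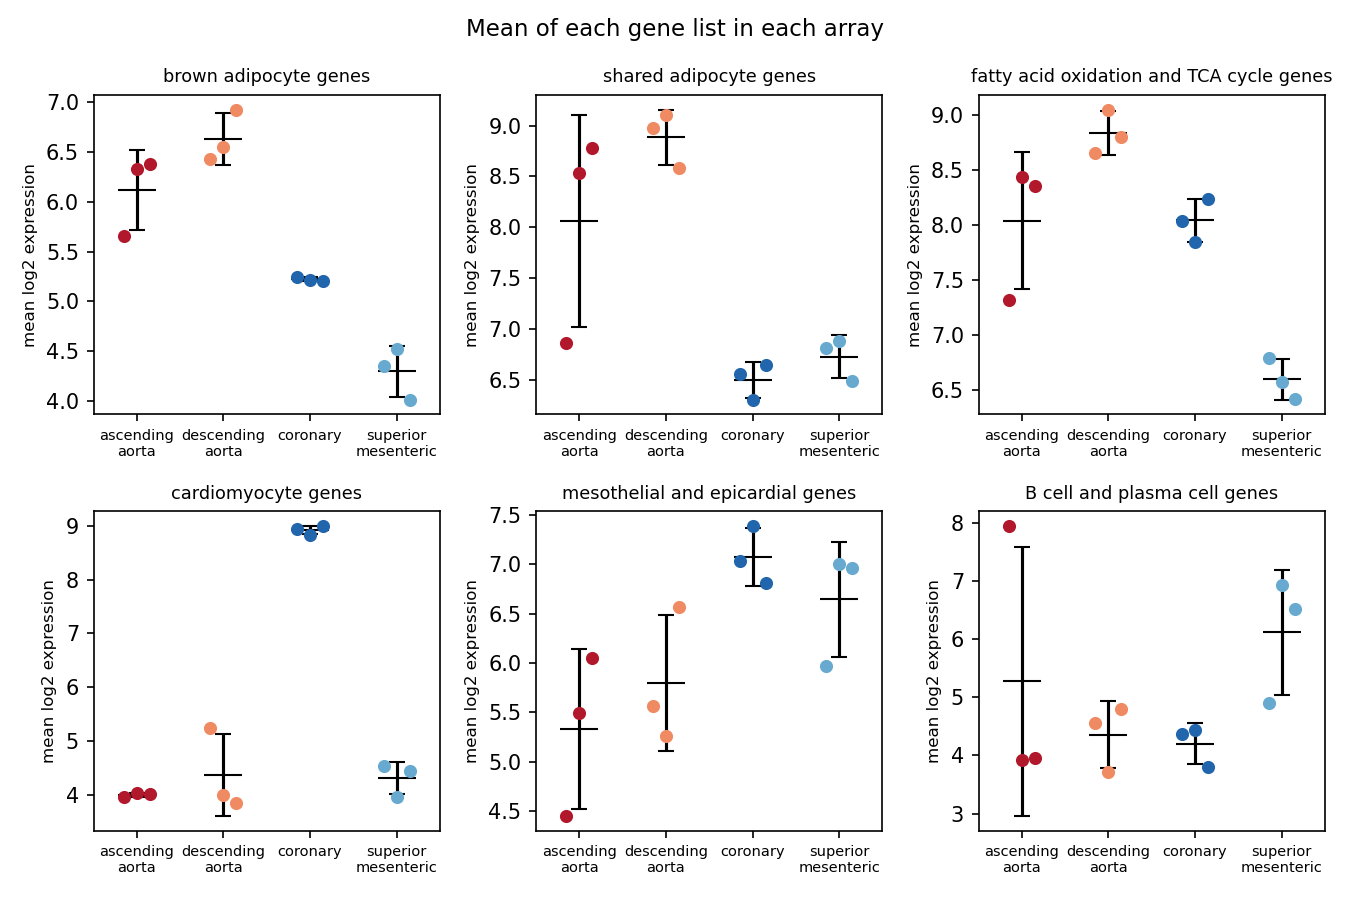
Mean log2 expression of 6 gene lists in each array by vessel, with the mean and SD of 3 arrays. Fat lists are high in both aortic segments, heart muscle genes are high in the coronary arrays at 8.84 to 9.0, and ascending aorta replicate 1 is high for B cell genes at 7.95.

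Genes of the vessel wall formed a smaller group. Gja5, the gap junction protein connexin 40 of arterial endothelium, was at 4.0, 7.86 and 7.77 in the ascending aorta and 7.90, 6.91 and 7.64 in the descending aorta, against 3.14 to 5.13 in the branch arteries. The array at 4.0 is ascending aorta replicate 1, and the other 5 aortic arrays lay above all branch arrays. The difference was 2.98 ± 0.58 with an adjusted p of 0.013 (limma), and the descending aorta passed against the superior mesenteric artery (adjusted p = 0.023) but not against the coronary artery (0.076). Hey2, a Notch target in arteries, was 2.01 ± 0.46 higher with an adjusted p of 0.032. It failed when any of 10 arrays was left out, with an adjusted p of up to 0.090, and passed without the 3 doubted arrays at 0.00043. Itga8, an integrin of smooth muscle, was 3.21 ± 0.58 higher and its ascending arrays were 6.55, 8.86 and 8.97. Superior mesenteric artery replicate 1 was at 7.26, above the lowest aortic arrays. Of the Notch and arterial list, 2 of 22 were higher and 1 lower, Hes1, another Notch target, at -0.85 ± 0.17 (adjusted p = 0.065 without the 3 doubted arrays). Without the doubted arrays 3 genes of that list were higher and 0 lower.

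Contractile and matrix lists showed few calls with all arrays. Of 25 smooth muscle genes, 1 was higher and 4 lower, while the median of the list was 0.31, opposite in sign to most calls. Desmin (Des), an intermediate filament of muscle, was at 4.39 to 5.44 in aorta and 5.74 to 9.17 in branch arteries, a difference of -2.61 ± 0.46 with no overlap. Of the other 3 lower genes, Casq2, a calcium store protein, and Ldb3, a Z-disc protein, are also on the heart muscle list and were higher in the coronary than in the superior mesenteric artery, by 3.05 and 2.5. Ppp1r12b, a myosin phosphatase subunit, was -0.88 ± 0.21, and its call was lost when any of 10 arrays was left out (adjusted p of up to 0.097) and without the doubted arrays (0.062). Without ascending aorta replicate 1, 7 smooth muscle genes were higher and 5 lower, and without the doubted arrays 4 and 3. Superior mesenteric artery replicate 1, which is not a doubted array, had a list mean of 8.87 against 6.67 in the next branch array. Without it 9 smooth muscle genes were called in either direction. Elastic fibre genes gave 2 higher of 20, with Ltbp2, a latent TGF-beta binding protein, at 0.87 ± 0.17, 7 without ascending aorta replicate 1 and 6 without the doubted arrays. Collagen, ion channel and fibroblast lists had 0 genes past the threshold in limma, and 3 of 23, 8 of 40 and 1 of 18 at an unadjusted p under 0.05. These counts of 0 did not hold without ascending aorta replicate 1: 5 collagen genes and 5 fibroblast genes were higher, and 2 ion channel genes were higher and 2 lower. Without the doubted arrays 2 collagen, 4 fibroblast and 2 ion channel genes were higher. The list of proteoglycan and matricellular genes gave 0 higher and 1 lower of 30, 7 and 1 without ascending aorta replicate 1, and 1 and 1 without the doubted arrays.

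The lower side held heart muscle, endothelial, mesothelial and signalling genes. Pln, the heart and smooth muscle regulator of the calcium pump, was at 4.39, 4.85 and 4.42 in the ascending and 7.03, 4.71 and 4.08 in the descending aorta. It was 11.75, 11.56 and 11.76 in the coronary artery and 9.89, 6.42 and 6.94 in the superior mesenteric artery. The difference was -4.80 ± 0.58, and the arrays of the sides overlapped only through descending aorta replicate 1. Tnnt2, the heart form of troponin T, was at 5.48 to 7.89 in aorta and 8.02 to 11.42 in branch arteries, with a difference of -3.78 ± 0.46. Neither gene passed for either aortic segment against the superior mesenteric artery alone (adjusted p from 0.076 to 0.22). Of 36 heart muscle genes 32 were lower in aorta (33 without the 3 doubted arrays), with a median of -2.50, and 10 were shared. The median was -4.61 against the coronary artery and 0.07 against the superior mesenteric artery. The part of the heart tissue around the coronary artery in these differences was not tested.

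**Figure D4:**
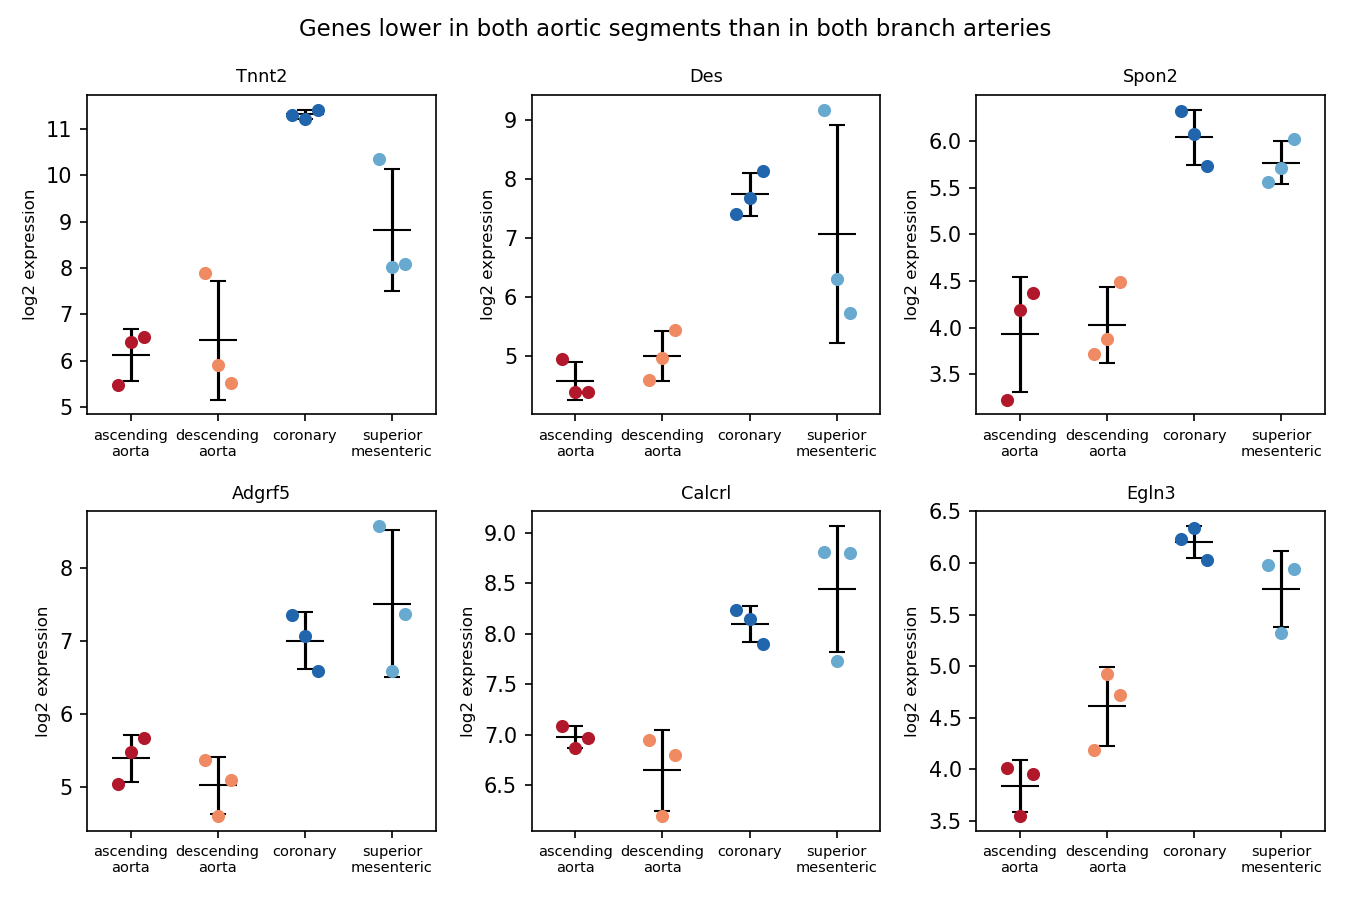
Log2 expression of 6 shared genes that are lower in aorta, in each array by vessel, with the mean and SD of 3 arrays. All 6 genes are lower in all 6 aortic arrays than in all 6 branch arrays.

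Of the 20 shared lower genes with the widest gap, 14 stayed past the threshold whichever array was left out and 15 did without the 3 doubted arrays. Spon2, a secreted matrix protein, was at 3.23 to 4.49 in aorta and 5.57 to 6.32 in branch arteries, a difference of -1.92 ± 0.22, and all 4 vessel pairs passed. Adgrf5, an adhesion receptor of endothelium, was -2.05 ± 0.29, with 4.61 to 5.67 against 6.59 to 8.58. Calcrl, the receptor subunit for adrenomedullin and CGRP, was -1.46 ± 0.20, with 6.19 to 7.09 against 7.73 to 8.81. Agtr1a, the angiotensin II receptor, was -1.32 ± 0.15, and Tmem88, a Wnt signalling inhibitor, was -1.65 ± 0.18. Receptors for vasoactive signals gave 3 of 31 lower and 0 higher, and 3 lower and 1 higher without the doubted arrays. Of 22 endothelial genes 3 were lower: Kdr and Flt1, receptors for VEGF, at -1.33 ± 0.26 and -1.33 ± 0.25, and Emcn, an endothelial sialomucin, at -1.77 ± 0.35. Emcn had an adjusted p of 0.051 without descending aorta replicate 2. Without the doubted arrays 1 gene of the endothelial list was higher and 3 were lower. A separate list of capillary and venous endothelial genes gave 2 higher and 1 lower of 16. Rgcc, a cell cycle regulator, was 1.87 ± 0.26 higher and Fabp4, a fatty acid carrier that is also on the fat cell list, 1.13 ± 0.16 higher, both with no overlap of arrays. Ephb4, a receptor of venous endothelium, was -0.91 ± 0.22, but its call was lost when any of 10 arrays was left out and without the doubted arrays (adjusted p = 0.16). That list gave 4 higher and 2 lower without ascending aorta replicate 1, and 3 and 0 without the doubted arrays.

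The nitric oxide and cGMP list gave 1 higher and 3 lower of 22, and 2 and 3 both without ascending aorta replicate 1 and without the doubted arrays. Pde3b, a phosphodiesterase also used in fat cells, was 1.70 ± 0.18 higher with no overlap. Of the lower genes, Ddah1, which breaks down an inhibitor of nitric oxide synthase, was -1.71 ± 0.24. Pde2a and Pde1c, phosphodiesterases, were -1.19 ± 0.24 and -0.57 ± 0.12. Pde2a lost its call without coronary replicate 2 or 3 (adjusted p of up to 0.053), and Pde1c without ascending replicate 2 or 3, descending replicate 1 or 2, or coronary replicate 1 (up to 0.060). Of 20 mesothelial genes 7 were lower, all shared, with a median of -1.41. Wt1, a transcription factor of the mesothelium, was -1.57 ± 0.28, at 3.91 to 6.11 in aorta and 5.86 to 7.08 in branch arteries. Without the 3 doubted arrays 4 of the 20 passed. Vsig4, a macrophage receptor, was -3.35 ± 0.70, and lost its call with the 3 doubted arrays left out (adjusted p = 0.082) and in 5 of the fits that left out 1 array, those without descending aorta replicate 1 or 3, coronary replicate 1 or 3, or superior mesenteric replicate 3, with an adjusted p of up to 0.060. The macrophage list had 0 of 22 past the threshold in limma and 2 at an unadjusted p under 0.05, and its mean reached 7.88 and 7.36 in superior mesenteric replicates 2 and 3.

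The 2 branch arteries differed from each other for many genes. Coronary minus superior mesenteric artery gave 645 calls, or 3.24% of genes, and 540 of these, or 2.71%, were higher in the coronary artery. Among shared lower genes 65 also differed between the branch arteries, 60 of them higher in the coronary artery, and among shared higher genes 24 did. Ascending minus descending aorta gave 3 calls in limma, or 0.015% of genes, and 1922 genes, or 9.64%, at an unadjusted p under 0.05. None of the shared genes was among the 3. The descending mean was above the ascending mean in 304 of the 334 shared higher genes, and in 280 without ascending aorta replicate 1. Over all genes the shares were 52.2% and 53.1%. The 334 genes were selected with both segment means, and they were not selected anew for the count of 280. These counts are therefore a description of the selected genes.

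**Figure D5:**
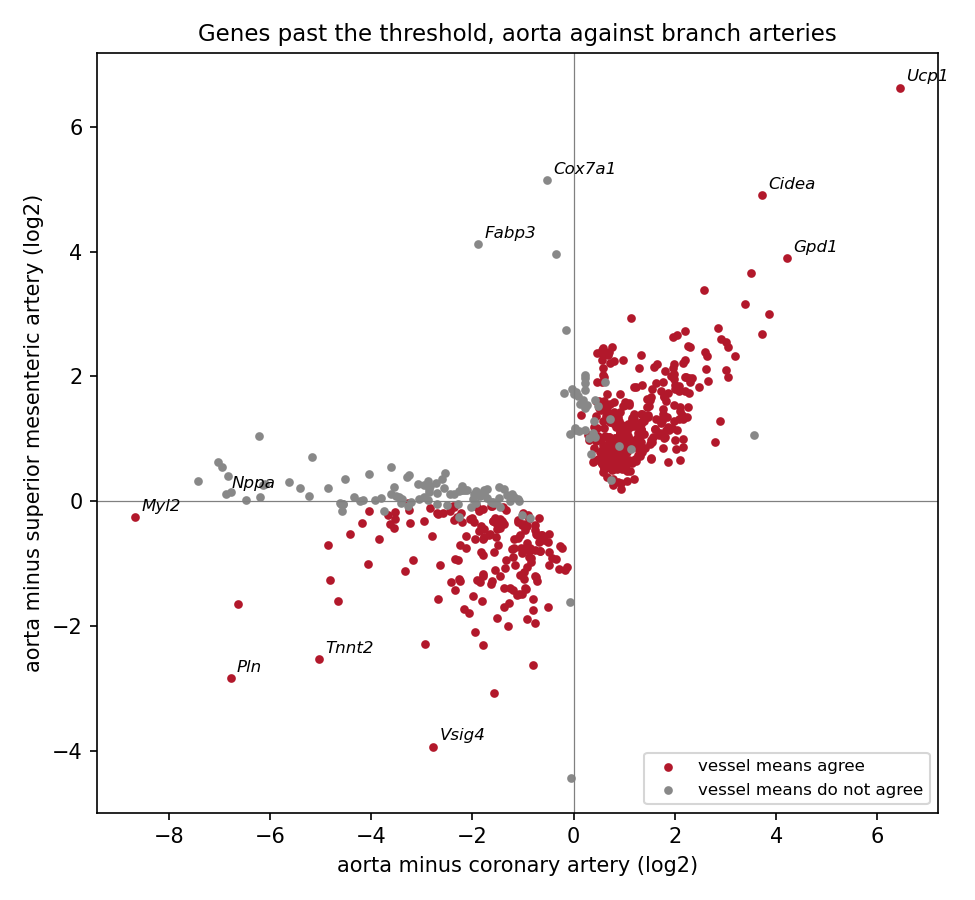
Aorta minus coronary artery against aorta minus superior mesenteric artery (log2) for the 639 called genes, red where the vessel means agree. Both axes share the aortic arrays. Grey points spread along the horizontal line at 0 are genes whose difference rests on the coronary artery.

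The 130 called genes whose vessels did not agree were 35 higher and 95 lower. Among the 95 on the lower side, 93 had their highest mean in the coronary artery, and 118 of the 130 also differed between the branch arteries. Nppa, the atrial natriuretic peptide, was at 10.27 to 10.80 in the coronary artery and between 3.22 and 4.27 in all other arrays. Tnnc1, a troponin of heart muscle, Myl3, a myosin light chain, and Cox6a2, a muscle form of a respiratory chain subunit, were likewise highest in the coronary artery. Among the higher genes, Cox7a1 and Cox8b, muscle and brown fat forms of cytochrome oxidase subunits, were as high in the coronary artery (11.13 to 11.35 and 12.25 to 12.29) as in the descending aorta (10.99 to 11.25 and 12.09 to 12.33). In the superior mesenteric artery Cox7a1 was 4.93 to 6.85 and Cox8b 7.22 to 8.83. Hoxc6, a positional gene of the trunk, was at 4.37 to 4.94 in the descending aorta and at 2.04 to 3.04 in all other arrays, so its call rests on that segment.

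Other fixed lists held few calls with all arrays, and several moved without ascending aorta replicate 1. The TGF-beta and BMP list gave 1 higher of 36, Gdf10, a BMP family ligand, at 1.76 ± 0.33, and 3 both without that array and without the doubted arrays. The Wnt list gave 1 higher and 1 lower of 37, 6 and 1 without that array, and 5 and 1 without the doubted arrays. Its 1 higher gene, Sfrp4, a secreted Wnt inhibitor, was 2.31 ± 0.54 higher and lost its call when any of 11 arrays was left out, all but ascending aorta replicate 1, with an adjusted p of up to 0.11. The 2 higher of 37 Hox genes were Hoxc6 and Hoxc8, and Hoxc8 lost its call when any of 8 arrays was left out (adjusted p of up to 0.084).

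Other lists mark immune and pancreatic cells. B cell and T cell lists gave 0 of 17 each in limma and 0 at an unadjusted p under 0.05, with medians of -0.32 and -0.07. Without ascending aorta replicate 1 each list had 1 gene lower, and the medians were -1.02 and -0.57. Without the doubted arrays each again had 1 lower. Jchain, which joins antibody chains in plasma cells, was -0.73 ± 0.85 with all arrays and -1.88 without the doubted ones. Il7r, a cytokine receptor of lymphocytes, was -0.48 ± 0.70 and -1.22. Ascending aorta replicate 1 was doubted for its B and T cell means. The counts, medians and differences of these lists without it therefore follow from that choice and are a description. Superior mesenteric replicates 2 and 3 had B cell means of 6.93 and 6.52, and replicate 2 was kept. The pancreatic acinar list gave 0 of 18 in limma and 7 at an unadjusted p under 0.05, and 0 of 18 without the doubted arrays.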

How the data were processed

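The members and gene lists were chosen with earlier results of these data known. The authors deposited log2 values for 35556 probe sets in 12 arrays. RMA and Partek 6.6 are named per the submitters' processing notes, without roles or order, and other steps are not given in the sources used here. Of the probe sets, 21789 had 1 symbol, 1621 several and 12146 none; 21698 matched the GRCm38.p6 gene table and 0 symbols changed. For 999 genes with several probe sets the one with the highest mean was kept. Array medians were 4.04 to 4.18. A model with 1 mean per vessel was fitted with limma 3.58.1 (R 4.3.3; residual df 8, prior df 4.36), with Benjamini-Hochberg adjustment over 19938 genes. Promoter motifs were counted in RefSeq windows. Figures used matplotlib. Genes named are the 20 shared genes per direction with the widest gap, the 5 non-agreeing per direction with the largest difference, and up to 6 called members per list, or 2 where none was called. Same-numbered arrays did not deviate together (correlations -0.251 to 0.0889 over 18 pairs), and the main model does not pair samples by number. The labels do not say whether same-numbered samples share an animal. Low correlations cannot exclude it, since single arrays that stand apart also shape these deviations. On simulated data with 200 of 19938 genes changed, 72.5%, 96.7% and 99.1% of 2-, 4- and 8-fold changes were recovered, with 5.89% false calls. The simulated arrays were independent, with the same change in both aortic segments and no array that stands apart. These rates therefore need not hold for the real arrays. Alternatives covered normalization, probe sets, variance, threshold, model, block and leaving out arrays.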

Additional observations from a re-analysis of the deposited data

Results flagged for a closer look

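Among 66 tests of list means by side, 18 had 1 array far from the other 5. A chance rate of about 1 in 20 assumes independent tests and arrays of the same kind. Here the lists share arrays and some genes, and each side mixes different vessels. The count of 18 therefore cannot be judged against that rate and is a description. Ascending aorta replicate 1 was highest for B cell genes (7.95), T cell genes (7.20) and macrophage genes (6.84). It was lowest for collagen (4.41), elastic fibre (4.83), fibroblast (5.40), respiratory chain (8.32), matricellular (5.31), fat cell (6.87) and Wnt pathway genes (4.05). Superior mesenteric artery replicate 1 was highest of the branch arrays for arterial and Notch (5.25), ion channel (4.43), vasoactive receptor (4.72), Schwann cell (4.84), smooth muscle (8.87) and TGF-beta pathway genes (5.96). Descending aorta replicate 1 was highest for heart muscle genes (5.24), and superior mesenteric artery replicate 3 for pancreatic acinar genes (9.32).

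The 10 named genes whose vessel means did not agree were chosen from this contrast, so an aortic mean between those of the branch arteries is largely fixed by the choice, and their values are a description. For 8 of them the coronary artery was higher than the superior mesenteric artery with the aortic mean between them. The differences were 7.75 for Tnnc1, 7.23 for Myl3, 6.99 for Nppa, 6.92 for Csrp3, 6.49 for Cox6a2, 5.66 for Cox7a1, 4.31 for Cox8b and 2.90 for Chchd10.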

How the results depend on the processing

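Main counts were 369 higher, 270 lower, 334 shared higher, 175 shared lower and 89 shared genes that differed between the branch arteries. These moved by over 1.5 times under array weights (830, 455, 663, 320 and 138), at an adjusted p under 0.01 (171, 145, 163, 79 and 43), with a 2-fold minimum (217, 172, 204 and 107 for the first 4), with 1 mean per side (141, 51, 141 and 51), with agreement over all 12 arrays (91 and 57 shared) and with the 3 arrays left out (665 higher, 597 shared higher and 135 in the last count). Leaving out 1 array gave 208 to 871, 181 to 446, 199 to 766, 108 to 327 and 47 to 217. The highest came without ascending aorta replicate 1; the lowest without descending aorta replicate 2, or coronary replicate 3 for the last. Other arrays that moved a count by over 1.5 times were coronary replicate 2 (239 higher), coronary replicates 1 and 2 (59 each in the last count) and superior mesenteric replicate 3 (55). Dim genes, normalization, probe sets and variance trend left all 5 within 1.5 times.

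List counts moved as follows. Smooth muscle: 14 with weights, 3 at 0.01, 2 with 1 mean per side, 4 to 12 leaving out 1 array. Respiratory chain: 31 with weights, 2 at 0.01, 2 with the 2-fold minimum, 0 with 1 mean per side, 30 without the 3 arrays, 2 to 40 leaving out 1. Mesothelial: 11, 3 at 0.01, 3 with 1 mean per side, 4 without the 3 arrays, 3 to 10 leaving out 1. Hypoxia and glycolysis: 3 at 0.01, 4 with the 2-fold minimum, 2 with 1 mean per side, 4 to 9 leaving out 1. With 1 mean per side fatty acid oxidation gave 0 and heart muscle 2; leaving out 1 array gave 18 to 30 and 27 to 34, brown fat 9 to 11 and fat cell genes 17 to 25. The cause was not tested. Apoa1 (main -0.22, not called) ranged from -0.44 to 0.128 leaving out 1 array, reversed without superior mesenteric artery replicate 2.

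With the replicate block, the counts were 351, 252, 309, 163 and 81, and the Wnt list had 0 higher and 2 lower. Calls were gained in the collagen (1 higher), ion channel (1 higher), pancreatic acinar (1 lower), mesothelial (9 lower) and respiratory chain (11 higher) lists. Among the lists that lost calls were smooth muscle (1 higher and 3 lower), arterial and Notch (1 and 1) and hypoxia and glycolysis (5 and 1). Hey2 and Ephb4 lost their calls in limma (adjusted p of 0.062 and 0.080). The labels do not say whether the numbers pair samples, so this is only an alternative.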
